A study of Homo sapiens with 6 samples.

Results

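The 42 genes described here belong to the integrated stress response and the unfolded protein response, and were read in SKOV3 cells with and without EIF5A2 knockdown. They were chosen by symbol from 58825 gene identifiers in the deposited count table, as 22 genes of an ATF4 branch and 20 genes of an endoplasmic reticulum (ER) chaperone branch. All 42 were found and all 42 passed the filter on low counts. SKOV3 is an established human ovarian cancer cell line, and EIF5A2 encodes a translation factor related to eIF5A. Cells were transiently transfected with a negative control siRNA (NC, 3 libraries) or with si-EIF5A2 (3 libraries), and total RNA was taken after 48 h for mRNA sequencing. Both groups carried an siRNA, so there was no untransfected group, and all values come from 1 cell line. The paper lists 1 siRNA sequence against EIF5A2, so loss of EIF5A2 and other effects of that siRNA cannot be told apart. The labels do not say that libraries of a group came from separate cultures, so each p-value measures only the spread between these libraries.

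In the integrated stress response, kinases that sense different stresses phosphorylate the translation initiation factor eIF2, which lowers general protein synthesis while translation of ATF4 mRNA goes up. ATF4 is a transcription factor of genes for amino acid supply, serine and folate metabolism and feedback control. In the unfolded protein response, the ER membrane sensors ATF6, IRE1 (encoded by ERN1) and PERK (encoded by EIF2AK3) respond to unfolded protein in the ER. ATF6 and XBP1 raise genes for ER chaperones and ER-associated degradation, and PERK joins this response to the ATF4 branch by phosphorylating eIF2.

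Some promoters of these genes hold short motifs known for ATF4 or for the ER stress factors, and those sequences are shown first because the called genes of the branches went in different directions. RefSeq promoters on GRCh38.p14, each 300 bases long from 250 bases before to 50 bases after a transcription start, were found for 38 of the 42 genes, with 54 promoters in all. The table held no entry for ALDH1L2, NUPR1, PSPH and SHMT2. Both strands were searched for exact letters. TGATGNAA is the core of the C/EBP-ATF response element read by ATF4, and TGACGTCA is the cAMP response element. The ER stress response element (ERSE), read by ATF6 with NF-Y, is CCAAT followed after 9 bases by CCACG. Its shorter form, ERSE-II, is ATTGG, 1 base, then CCACG, and TGACGTGG is the core of the unfolded protein response element.

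The C/EBP-ATF core was found for 5 of the 18 ATF4 branch genes with a promoter (27.8%). Over all 27305 genes in the promoter table the share was 4.46%. Counted by promoter, the core was in 5 of 28 of this branch (17.9%), against 3.62% of all 35116 promoters. No test was run on these shares, and both the genes and this motif were chosen as known parts of the ATF4 response. The 5 windows are printed here in the direction of the motif, with its fixed letters in capitals.
ATF3, chr1:212565210-212565229, plus strand: tcaggaTGATGgAAggctgt
CHAC1, chr15:40953256-40953275, minus strand: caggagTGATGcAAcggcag
ASNS, chr7:97872463-97872482, minus strand: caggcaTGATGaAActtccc
CEBPG, chr19:33374065-33374084, plus strand: ggcgtcTGATGcAAcctgcc
PPP1R15B, chr1:204412031-204412050, minus strand: cccggcTGATGcAAcctcac
One ER chaperone branch gene, HERPUD1, held the same core, and the cAMP response element was found for 1 ATF4 branch gene, PPP1R15A, against 2.25% of all genes.
HERPUD1, chr16:56931960-56931979, minus strand: acgggcTGATGcAAcccgcc
PPP1R15A, chr19:48872357-48872376, plus strand: tcttcgTGACGTCAgcacgc

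In the ER chaperone branch, 7 of 20 genes held an ERSE and 3 of 20 an ERSE-II, so that 10 of 20 held either one. None of the 18 ATF4 branch genes held either. Over all genes in the promoter table, 25 of 27305 held an ERSE (0.0916%) and 19 held an ERSE-II (0.0696%). These shares carry no test, and both the genes and the motifs were chosen as known parts of the ER stress response. Windows of the ERSE follow, with CCAAT and CCACG in capitals. HSP90B1 held 2 of them, and 1 is shown for CANX, whose 3 promoter entries hold it at different distances from their starts.
HSPA5, chr9:125241385-125241415, minus strand: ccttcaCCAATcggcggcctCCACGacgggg
HSP90B1, chr12:103930210-103930240, plus strand: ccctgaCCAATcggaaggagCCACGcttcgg
HSP90B1, chr12:103930315-103930345, minus strand: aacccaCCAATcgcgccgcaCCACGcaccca
XBP1, chr22:28800597-28800627, minus strand: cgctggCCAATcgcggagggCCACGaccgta
PDIA6, chr2:10812847-10812877, minus strand: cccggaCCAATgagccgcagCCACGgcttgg
CRELD2, chr22:49918548-49918578, minus strand: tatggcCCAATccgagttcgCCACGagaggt
CALR, chr19:12938378-12938408, minus strand: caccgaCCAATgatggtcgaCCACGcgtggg
CANX, chr5:179698772-179698802, plus strand: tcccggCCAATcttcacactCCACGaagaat
The ERSE-II windows have ATTGG and CCACG in capitals, and HYOU1 held 2 of them.
HERPUD1, chr16:56932019-56932041, plus strand: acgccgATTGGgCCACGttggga
SDF2L1, chr22:21642108-21642130, minus strand: gttttgATTGGtCCACGcttccg
HYOU1, chr11:119057374-119057396, plus strand: cctgggATTGGaCCACGtcacgg
HYOU1, chr11:119057268-119057290, plus strand: gtactcATTGGaCCACGtcccag
The unfolded protein response element was found for HYOU1 alone among the 38 genes, against 0.927% of all genes, and it overlapped the first of the HYOU1 windows above on the other strand.
HYOU1, chr11:119057380-119057399, minus strand: gccccgTGACGTGGtccaat

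Whole promoters are printed for 1 gene of each branch that moved after EIF5A2 knockdown. In ASNS (chr7:97872359-97872658, minus strand), the C/EBP-ATF core, in capitals, starts at position -68 relative to the transcription start.
ASNS: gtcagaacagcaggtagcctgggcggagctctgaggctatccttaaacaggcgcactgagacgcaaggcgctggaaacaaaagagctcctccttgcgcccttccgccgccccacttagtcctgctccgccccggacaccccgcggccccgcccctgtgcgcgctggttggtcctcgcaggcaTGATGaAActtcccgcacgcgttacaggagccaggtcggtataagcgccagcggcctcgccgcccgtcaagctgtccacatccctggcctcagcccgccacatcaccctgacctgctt
In HSPA5 (chr9:125241294-125241593, minus strand), the ERSE, with its fixed letters in capitals, starts at position -66.
HSPA5: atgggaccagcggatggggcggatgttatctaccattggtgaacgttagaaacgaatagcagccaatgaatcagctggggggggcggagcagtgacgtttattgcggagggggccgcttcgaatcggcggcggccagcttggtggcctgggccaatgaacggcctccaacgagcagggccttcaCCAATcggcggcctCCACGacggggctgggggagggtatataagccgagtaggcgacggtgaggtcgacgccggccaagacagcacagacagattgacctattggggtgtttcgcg

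EIF5A2 itself checked the labels. Its level was 27.8, 29.8 and 29.9 CPM (the count as a share of the library total, scaled by TMM) in the NC libraries and 2.76, 4.04 and 4.27 CPM in the si-EIF5A2 libraries. All si-EIF5A2 libraries lay below all NC libraries, and the mean left was 12.7% of the NC mean (log2 fold change -2.98, SE 0.18, edgeR quasi-likelihood adjusted p = 1.6e-05). Total counts ran from 46900204 to 74142267 per library, and the correlation of log2 CPM over genes was 0.964 to 0.974 within a group and 0.929 to 0.938 between groups. Of 9 epithelial marker genes, 5 were at 10 CPM or more. KRT19, EPCAM and CDH1 were low, with NC means of 3.22, 1.55 and 0.663 CPM, and MUC16, the gene of the CA125 antigen, was at 0 in every library. The summed level of the 9 markers was 1506 to 1673 CPM in NC and 956 to 1168 CPM in si-EIF5A2, most of it from KRT7, KRT8 and KRT18. KRT7, KRT8 and PAX8 were lower after knockdown, and the part of this difference in the results below was not tested. Summed markers of leukocytes, endothelium and fibroblasts (8 genes) were 42.5 to 60.6 CPM in NC and 29.7 to 59.0 CPM in si-EIF5A2, nearly all from CD68, and 2 of the 8, the leukocyte genes PTPRC and CD3E, were at 0 in every library. In bulk RNA, fewer cells of a type and less RNA per cell cannot be told apart.

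The question put to the 42 genes was whether the ATF4 branch and the ER chaperone branch moved together after EIF5A2 knockdown. They did not: 8 of 22 ATF4 branch genes fell and none rose, and 11 of 20 ER chaperone branch genes rose and none fell. A call needed both a fold change over 1.5 and an edgeR quasi-likelihood p under 0.05 after Benjamini-Hochberg adjustment over 16208 genes. Under this rule 24.6% of all genes tested were called, 11.1% higher and 13.6% lower. The ATF4 branch had 36.4% of its genes called and the ER chaperone branch 55%. The median log2 fold change was -0.14 in the ATF4 branch and 0.67 in the ER chaperone branch, beside -0.01 over all genes. The 3 libraries of each group did not overlap for 14 ATF4 branch genes, 10 of them lower and 4 higher in si-EIF5A2, and for 19 ER chaperone branch genes, 2 of them lower and 17 higher. Over all genes tested, 51.2% had groups that did not overlap.

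Averaged over its 22 genes, the ATF4 branch had a mean log2 CPM of 6.85 ± 0.02 in NC and 6.43 ± 0.08 in si-EIF5A2 (SD, n = 3 each). The same mean over the 20 ER chaperone branch genes was 6.75 ± 0.03 in NC and 7.38 ± 0.03 in si-EIF5A2 (SD, n = 3 each). Within a library, the ATF4 branch mean minus the ER chaperone branch mean was 0.08, 0.12 and 0.10 in NC and -0.97, -0.85 and -1.01 in si-EIF5A2. With NUPR1 included, the branch means were thus nearly level in every NC library and about 1 log2 unit apart in every si-EIF5A2 library. NUPR1, whose level came close to 0, weighed on the ATF4 branch mean. The difference between groups in that mean was -0.41 with NUPR1 and -0.24 without it, a repeat chosen after the values were seen. Without NUPR1 the ATF4 branch mean was 7.10 ± 0.03 in NC and 6.86 ± 0.03 in si-EIF5A2 (SD, n = 3 each). That was above the ER chaperone branch mean in NC and below it in si-EIF5A2. Branch means are not scaled by gene length, so level means of different genes have no meaning of their own.

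**Figure D1:**
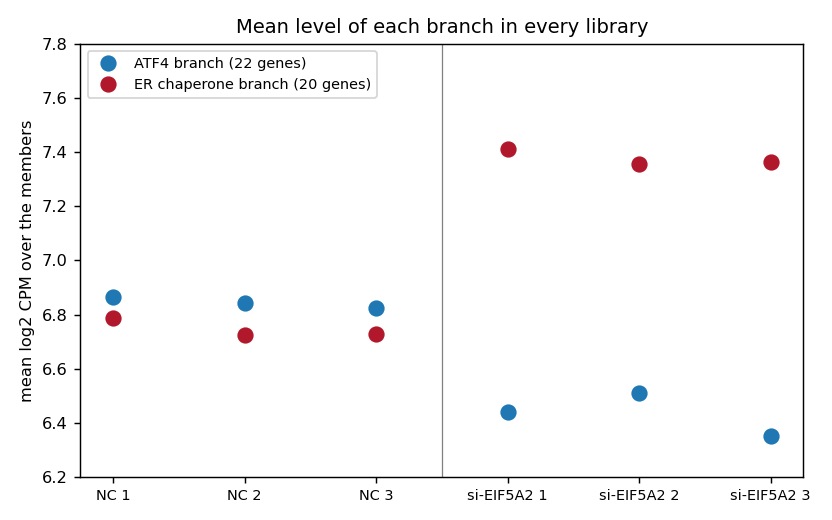
Mean log2 CPM over the genes of each branch (vertical axis) in each of the 6 libraries (horizontal axis), 1 point per branch and library. The points of the branches lie within 0.12 of each other in the NC libraries and at least 0.85 apart in the si-EIF5A2 libraries, with the ER chaperone branch above.

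ATF4, the transcription factor at the centre of the ATF4 branch (chr22:39519695-39522685, plus strand), stood at 1404, 1354 and 1342 CPM in NC and at 643, 652 and 609 CPM in si-EIF5A2. The highest si-EIF5A2 library was below the lowest NC library by a wide margin, and ATF4 mRNA fell by 1.11 on the log2 scale (SE 0.06, adjusted p = 1.38e-05). These are levels of mRNA, and the translation of ATF4 mRNA was not measured. ATF5, a related factor whose mRNA is also controlled through eIF2, was at 34.5, 32.6 and 30.3 CPM in NC and 27.7, 31.9 and 33.4 CPM in si-EIF5A2, with overlapping groups (log2 fold change -0.07, adjusted p = 0.662). ATF3, a factor downstream of ATF4 that holds back or raises stress genes, was at 7.34, 6.32 and 4.70 CPM in NC and 7.88, 7.95 and 7.88 CPM in si-EIF5A2. All si-EIF5A2 libraries of ATF3 were above all NC libraries, and its difference did not pass the test (log2 fold change 0.37, SE 0.18, adjusted p = 0.161).

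DDIT3 encodes CHOP, a factor tied to cell death under lasting ER stress. Its level was 31.0, 55.0 and 57.4 CPM in NC and 62.9, 57.7 and 101 CPM in si-EIF5A2. The groups did not overlap, although the nearest libraries were 57.4 and 57.7 CPM, and the log2 fold change of 0.63 (SE 0.32) was not called, with an adjusted p of 0.191. Leaving out NC 1, the lowest library, gave 0.40, and leaving out si-EIF5A2 3, the highest, gave 0.33. DDIT3 also overlaps another gene on the same strand, which makes its count less certain. TRIB3, a pseudokinase that feeds back on ATF4 and CHOP, was at 248, 218 and 201 CPM in NC and 289, 335 and 308 CPM in si-EIF5A2. All its si-EIF5A2 libraries were above all NC libraries, with an adjusted p of 0.00593 and a log2 fold change of 0.48 (SE 0.10), under the fold needed for a call.

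The C/EBP factors that pair with ATF4 and CHOP were not called. CEBPB was at 159, 114 and 105 CPM in NC and 147, 169.8 and 161 CPM in si-EIF5A2 (log2 fold change 0.34, SE 0.15, adjusted p = 0.134), and its groups overlapped through NC 1 alone. Without NC 1 its log2 fold change was 0.53 with an adjusted p of 0.00567. CEBPG, the partner of ATF4 at many amino acid response genes, lay between 77.6 and 90.0 CPM in all 6 libraries (log2 fold change 0.01, adjusted p = 0.93).

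The ATF4 branch genes of serine and folate metabolism did not move as one. SHMT2, the mitochondrial serine hydroxymethyltransferase that passes the one-carbon unit of serine to folate (chr12:57229327-57234935, plus strand), was at 967, 960.3 and 883 CPM in NC and 266, 333 and 297 CPM in si-EIF5A2. Every si-EIF5A2 library was far below every NC library, and SHMT2 fell 3.14-fold (log2 fold change -1.65, SE 0.10, adjusted p = 1.46e-05). NDUFA4L2 overlaps SHMT2 on the opposite strand, and the sources used here do not say whether the libraries kept strand. PHGDH, the first enzyme of serine synthesis, was at 449.9, 473 and 479 CPM in NC and 288, 322 and 311 CPM in si-EIF5A2. Its groups were apart, and it fell by 0.61 on the log2 scale (SE 0.07, adjusted p = 0.000415). That is close to the fold needed for a call, and without si-EIF5A2 1 it was -0.57 and no longer called.

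PSAT1, the second enzyme of serine synthesis, was at 652, 702 and 722 CPM in NC and 552, 517 and 516 CPM in si-EIF5A2. Its groups were apart at a smaller size (log2 fold change -0.39, SE 0.07, adjusted p = 0.00354), so it was not called. PSPH, which completes serine synthesis, was at 54.6, 55.0 and 61.0 CPM in NC and 41.5, 55.1 and 46.4 CPM in si-EIF5A2 (log2 fold change -0.25, adjusted p = 0.132). Here 1 si-EIF5A2 library lay within the range of NC. MTHFD2, the mitochondrial folate enzyme downstream of SHMT2, was at 257, 286 and 316 CPM in NC and 319, 262 and 280.2 CPM in si-EIF5A2, with groups that overlapped throughout (log2 fold change 0.01, SE 0.11, adjusted p = 0.978). ALDH1L2, which oxidises formyl folate in mitochondria, was low in every library, from 4.68 to 7.41 CPM (log2 fold change 0.12, adjusted p = 0.671).

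ASNS, the asparagine synthetase that is a standard readout of ATF4, was at 340.0, 349 and 403 CPM in NC and 213, 224 and 199 CPM in si-EIF5A2. Its groups were apart, and it fell 1.72-fold (log2 fold change -0.78, SE 0.09, adjusted p = 0.000348), with the C/EBP-ATF core printed above in its promoter. A second annotated gene shares the strand and part of the span of ASNS. CHAC1, which degrades glutathione and carries the same core, was at 114, 90.5 and 88.7 CPM in NC and 43.6, 47.1 and 44.4 CPM in si-EIF5A2. NC 1 was the highest of its libraries and the si-EIF5A2 libraries were close together, with a 2.17-fold fall (log2 fold change -1.12, SE 0.11, adjusted p = 0.000186). The other 3 genes with the core, ATF3, CEBPG and PPP1R15B, were not called. Of the 13 ATF4 branch genes whose searched promoters lacked the core, 4 fell. The median log2 fold change was -0.21 with the core and 0.01 without it, and this difference was not tested. The 4 genes without a promoter entry, including SHMT2 and NUPR1, which both fell, are in neither median.

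DDIT4 encodes REDD1, an inhibitor of mTORC1 signalling, and SESN2 encodes sestrin 2, which also restrains mTORC1. DDIT4 was at 432, 432 and 426 CPM in NC and 245, 274 and 249.9 CPM in si-EIF5A2, with groups far apart, and it fell 1.68-fold (log2 fold change -0.75, SE 0.07, adjusted p = 0.000132). SESN2 was at 281, 267 and 250.2 CPM in NC and 280.1, 302 and 291 CPM in si-EIF5A2, with overlapping groups (log2 fold change 0.13, SE 0.07, adjusted p = 0.215). STC2, a secreted glycoprotein induced under ER stress, was at 202, 205 and 203 CPM in NC and 132, 128 and 132 CPM in si-EIF5A2. Its libraries hardly varied within a group, and it fell 1.56-fold (log2 fold change -0.64, SE 0.06, adjusted p = 0.000166). NUPR1, a small stress-induced nuclear protein (chr16:28532708-28539174, minus strand), was at 2.47, 2.44 and 3.06 CPM in NC and 0.274, 0.460 and 0 CPM in si-EIF5A2.

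The groups of NUPR1 were apart, but the si-EIF5A2 values rest on 14, 24 and 0 deposited counts. A count of 0 in si-EIF5A2 3 allows up to 0.240 CPM, taking 3 fragments as the limit. The fitted log2 fold change was -3.42 (SE 0.90, adjusted p = 0.025), and the call was lost when NC 1, NC 2, NC 3 or si-EIF5A2 1 was left out, with adjusted p from 0.0691 to 0.0864. Of the 8 ATF4 branch genes that fell, NUPR1 thus had the least support in depth.

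PPP1R15A (GADD34) and PPP1R15B (CReP) are the regulatory subunits that bring a phosphatase to eIF2 and so end the response. PPP1R15A, which is induced by stress, was at 359, 382 and 366 CPM in NC and 407, 426 and 429 CPM in si-EIF5A2 (log2 fold change 0.19, SE 0.06, adjusted p = 0.0527). PPP1R15B, the constitutive subunit, was at 61.3, 53.0 and 52.4 CPM in NC and 48.2, 43.6 and 52.2 CPM in si-EIF5A2 (log2 fold change -0.21, SE 0.10, adjusted p = 0.155). The groups did not overlap for either gene, and neither was called. VLDLR, a lipoprotein receptor raised under PERK and ATF4, lay between 50.3 and 62.5 CPM in all libraries (log2 fold change 0.08, adjusted p = 0.59).

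**Figure D2:**
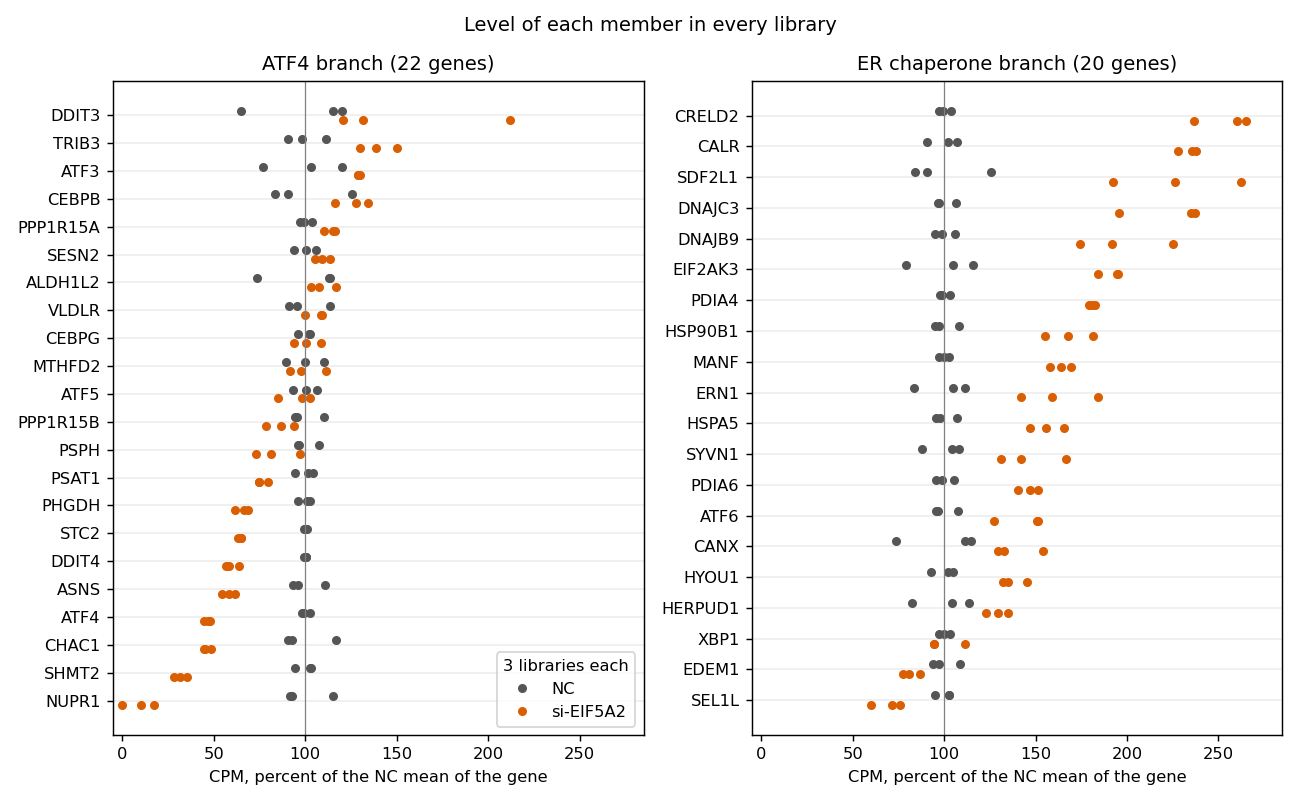
CPM of every gene in each library as a percent of the NC mean of that gene (horizontal axis), with the ATF4 branch on the left, the ER chaperone branch on the right and 3 points per group and gene. In the ATF4 branch SHMT2 was at 31.9% of its NC mean, ATF4 at 46.5% and DDIT3 at 155%, and in the ER chaperone branch CRELD2 was at 254% and SEL1L at 69.2%.

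In the ER chaperone branch, the chaperones HSPA5 and HSP90B1 rose. HSPA5, the Hsp70 of the ER also known as BiP (chr9:125234853-125241330, minus strand), was at 1074, 1097 and 1204 CPM in NC and 1865, 1652 and 1754 CPM in si-EIF5A2. The groups were well apart, and HSPA5 rose 1.56-fold (log2 fold change 0.64, SE 0.08, adjusted p = 0.000437). HSP90B1, the Hsp90 of the ER also known as GRP94, was at 629, 616 and 699 CPM in NC and 1005, 1088 and 1176 CPM in si-EIF5A2. Again no library crossed between groups, and it rose 1.68-fold (log2 fold change 0.75, SE 0.09, adjusted p = 0.000343). A microRNA gene lies within HSP90B1 on the same strand.

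CALR, the lectin chaperone calreticulin (chr19:12938578-12944489, plus strand), was at 731, 768 and 649.7 CPM in NC and 1633, 1704 and 1687 CPM in si-EIF5A2. It rose 2.34-fold with groups far apart (log2 fold change 1.23, SE 0.08, adjusted p = 2.23e-05). Its membrane-bound partner CANX, calnexin, was at 796, 819.6 and 524 CPM in NC and 1099, 922 and 949 CPM in si-EIF5A2. The groups of CANX did not overlap, but NC 3 stood well below the other NC libraries, and the log2 fold change of 0.47 (SE 0.18) did not pass, with an adjusted p of 0.0781. Without NC 3 the log2 fold change of CANX was 0.28, with an adjusted p of 0.0665.

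Among genes whose products work with HSPA5 in folding, DNAJB9, DNAJC3 and SDF2L1 rose and HYOU1 was not called. DNAJB9 (ERdj4), a co-chaperone that also holds IRE1 inactive, was at 26.5, 24.7 and 23.7 CPM in NC and 56.3, 48.0 and 43.5 CPM in si-EIF5A2, with groups apart (log2 fold change 0.98, SE 0.12, adjusted p = 0.000401). DNAJC3 (p58IPK), a co-chaperone and an inhibitor of eIF2 kinases, was at 52.1, 47.2 and 47.5 CPM in NC and 115, 95.6 and 116 CPM in si-EIF5A2. All si-EIF5A2 libraries of DNAJC3 were well above all NC libraries (log2 fold change 1.15, SE 0.10, adjusted p = 8.8e-05). SDF2L1, which works with HSPA5 and its J proteins, was low but apart, at 15.7, 10.5 and 11.3 CPM in NC and 24.0, 32.7 and 28.3 CPM in si-EIF5A2 (log2 fold change 1.18, SE 0.18, adjusted p = 0.00166). HYOU1, the large Hsp70 that exchanges nucleotide on HSPA5, was at 159, 179 and 175 CPM in NC and 249, 226 and 231 CPM in si-EIF5A2. Its groups were apart at an adjusted p of 0.00244, and its log2 fold change of 0.46 (SE 0.08) was under the fold needed for a call.

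CRELD2, a secreted ER stress protein with disulphide isomerase activity (chr22:49918167-49927540, plus strand), had the highest log2 fold change of the 42 genes. It was at 22.8, 22.3 and 23.8 CPM in NC and 54.4, 61.0 and 59.9 CPM in si-EIF5A2, and rose 2.54-fold (log2 fold change 1.34, SE 0.09, adjusted p = 2.3e-05). MANF, a secreted factor that binds HSPA5, was at 132, 128 and 125 CPM in NC and 209.9, 202 and 217 CPM in si-EIF5A2 (log2 fold change 0.71, SE 0.07, adjusted p = 0.000136). In both genes the libraries of a group were close together and the groups were far apart. Of the protein disulphide isomerases, PDIA4 was at 155, 147 and 149 CPM in NC and 274, 269 and 271 CPM in si-EIF5A2, and rose 1.81-fold (log2 fold change 0.85, SE 0.06, adjusted p = 4.1e-05). PDIA6, a second isomerase of this family, was at 419, 433 and 460.4 CPM in NC and 663, 614 and 643 CPM in si-EIF5A2. Its groups were apart (adjusted p = 0.000591), and its log2 fold change of 0.55 (SE 0.07) was just under the fold needed for a call.

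The 3 sensors of the unfolded protein response were all higher in si-EIF5A2 in every library, and 2 of them were called. EIF2AK3, the sensor PERK and an eIF2 kinase, was at 11.8, 8.10 and 10.7 CPM in NC and 18.8, 19.9 and 19.8 CPM in si-EIF5A2 (log2 fold change 0.93, SE 0.15, adjusted p = 0.00219). ERN1, the sensor IRE1, was at 37.8, 35.6 and 28.5 CPM in NC and 62.6, 48.3 and 54.0 CPM in si-EIF5A2 (log2 fold change 0.69, SE 0.14, adjusted p = 0.00564). ERN1 went under the fold needed without NC 3, at 0.57, and without si-EIF5A2 1, at 0.58. ATF6 was at 87.3, 98.6 and 88.5 CPM in NC and 138, 139 and 116 CPM in si-EIF5A2, with an adjusted p of 0.00378 at a log2 fold change of 0.52 (SE 0.10), which is under that fold. XBP1, the factor whose mRNA is spliced by IRE1, was at 217, 212 and 225 CPM in NC and 206, 242 and 206 CPM in si-EIF5A2. Its groups overlapped and its total mRNA had a log2 fold change that rounds to 0 (SE 0.08, adjusted p = 0.999). Counts per gene do not separate spliced from unspliced XBP1, and the activity of the sensors was not measured.

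The genes of ER-associated degradation in this branch went both ways and none was called. HERPUD1, a scaffold of the degradation complex, was at 164, 119 and 150.5 CPM in NC and 177, 195 and 187 CPM in si-EIF5A2 (log2 fold change 0.37, SE 0.12, adjusted p = 0.0418). SYVN1, the ubiquitin ligase HRD1, was at 40.5, 49.8 and 48.0 CPM in NC and 76.8, 65.6 and 60.5 CPM in si-EIF5A2 (log2 fold change 0.55, SE 0.12, adjusted p = 0.0084). Both genes had all si-EIF5A2 libraries above all NC libraries, and SYVN1 overlaps FAU and a microRNA gene on its strand. SEL1L, the partner that holds HRD1 stable, was at 84.7, 91.3 and 91.5 CPM in NC and 67.6, 53.5 and 63.9 CPM in si-EIF5A2 (log2 fold change -0.53, SE 0.10, adjusted p = 0.00463). EDEM1, which marks misfolded glycoproteins by mannose trimming, was at 55.7, 54.0 and 62.3 CPM in NC and 49.8, 44.3 and 46.3 CPM in si-EIF5A2 (log2 fold change -0.29, SE 0.09, adjusted p = 0.0386). For SEL1L and EDEM1 all si-EIF5A2 libraries lay below all NC libraries, the opposite order to SYVN1 and HERPUD1.

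**Figure D3:**
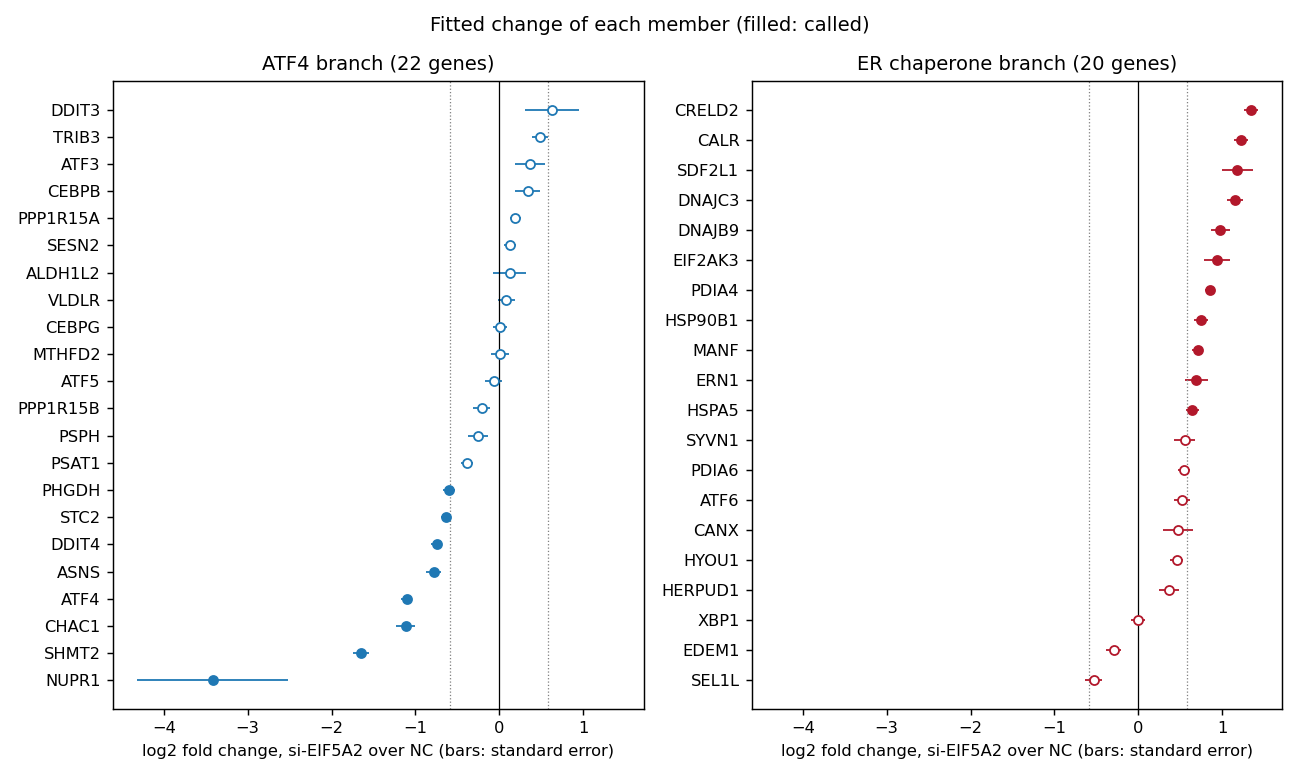
Log2 fold change of si-EIF5A2 over NC for each of the 42 genes (points, with bars of 1 standard error), filled where the gene was called, with dotted lines at a fold change of 1.5. Filled points of the ATF4 branch, from PHGDH at -0.61 to NUPR1 at -3.42, are all on the left, and those of the ER chaperone branch, from HSPA5 at 0.64 to CRELD2 at 1.34, are all on the right.

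With the adjusted p alone and no limit on the fold, 16 ER chaperone branch genes were higher and 2 were lower, while 1 ATF4 branch gene (TRIB3) was higher and 9 were lower, the ninth being PSAT1. Over all genes tested, 18% were higher and 18.9% were lower by this rule. The 2 ER chaperone branch genes that were lower were SEL1L and EDEM1, and the 2 that passed in neither direction were XBP1 and CANX. Of the 10 ER chaperone branch genes with an ERSE or ERSE-II in the searched promoters, 5 rose, with a median log2 fold change of 0.60. Of the 10 without either there, 6 rose, with a median of 0.70.

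Levels were also set side by side between genes as CPM per kb of exon, using the merged length of all annotated exons of a gene. That length can exceed the mRNA that is expressed, so the order of genes depends on the annotation. On this scale ATF4 had the highest value of the 42 genes in NC, at 544, followed by PSAT1 at 316, HSPA5 at 288 and CALR at 264. In si-EIF5A2 the order was CALR at 617, HSPA5 at 449.7, ATF4 at 252 and PSAT1 at 242. CALR and HSPA5 per kb were thus both below ATF4 in NC and both above it in si-EIF5A2. The lowest was NUPR1, at 0.468 in NC. The sensors were spread, with EIF2AK3 at 1.88, ERN1 at 3.13 and ATF6 at 11.6 per kb in NC. ATF3, at 1.52 per kb in NC, was far below ATF4.

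**Figure D4:**
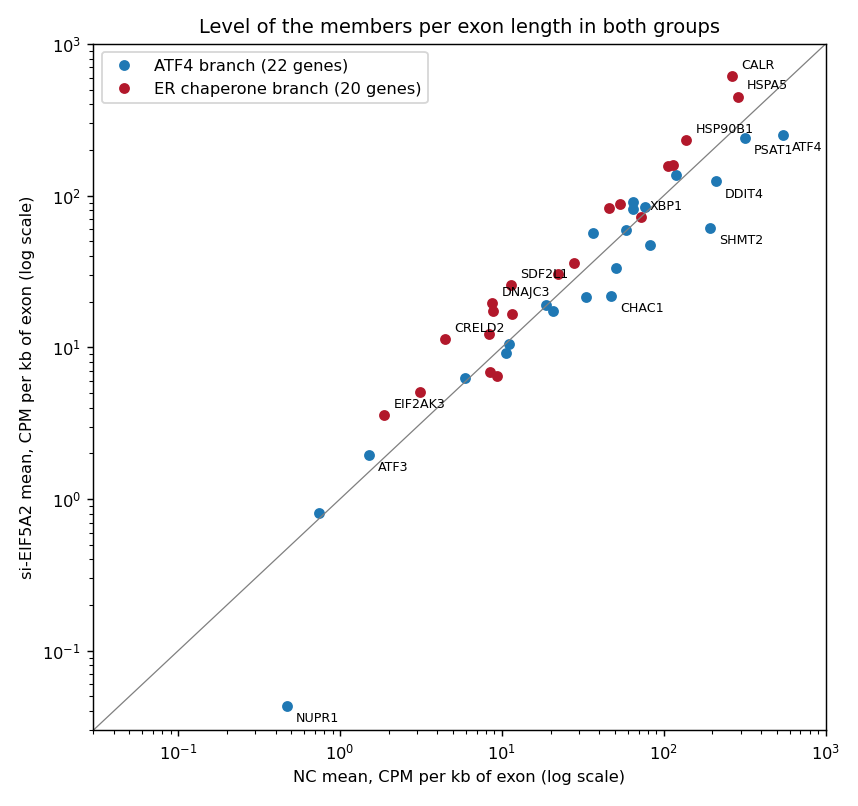
Mean level of each gene in NC (horizontal axis) and in si-EIF5A2 (vertical axis), both as CPM per kb of exon on log scales, with a line where they are equal. CALR (264 and 617) and HSPA5 (288 and 449.7) lie above the line at the high end, and ATF4 (544 and 252) and SHMT2 (194 and 61.7) lie below it.

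Other genes of these pathways, taken from 8 lists of genes outside the 42, were read in the same fit. In the 4 lists around the ATF4 branch, the share of genes called was 18.8% for the eIF2 genes, 27.3% for the transporters, 20% for the tRNA synthetases and 41.7% for the serine and one-carbon genes. The first 3 of these shares are near the 24.6% of all genes. Of 16 genes for the other eIF2 kinases, eIF2, its exchange factor eIF2B and the regulators, 3 fell and none rose (median log2 fold change 0.01). These were DELE1, the messenger of mitochondrial stress to the kinase HRI (-1.87, SE 0.10, adjusted p = 1.09e-05), IMPACT, an inhibitor of GCN2 activation (-0.98, SE 0.18, adjusted p = 0.00405), and EIF2B2, a subunit of eIF2B (-0.81, SE 0.10, adjusted p = 0.000424). DELE1 was at 78.3 ± 4.01 CPM with the control siRNA and 21.5 ± 2.15 CPM after knockdown (SD, n = 3 each), which left 27.4% of the NC mean.

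Of 11 amino acid transporter genes tested, 3 fell and none rose (median -0.27). They were SLC36A1, a proton-coupled transporter of small amino acids (-1.06), SLC43A1, a carrier of large neutral amino acids (-0.93), and SLC6A9, a glycine transporter (-0.69). Of 20 cytosolic tRNA synthetase genes, 3 fell and 1 rose (median -0.11). IARS1, which charges isoleucine tRNA, had a log2 fold change of -1.22 (SE 0.07, adjusted p = 1.47e-05), NARS1, for asparagine, of -1.04 and HARS1, for histidine, of 1.03. Of 12 further serine and one-carbon genes tested, 4 fell and 1 rose (median -0.03). MTHFD1L, the mitochondrial formate producer, was at -1.12 (SE 0.07, adjusted p = 2.14e-05), SLC25A32, the mitochondrial folate carrier, at -1.02 and MTHFD1, the cytosolic folate enzyme, at -0.96.

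In the lists around the ER chaperone branch, the share called was 63.2% for other ER folding enzymes, 34.6% for the translocon and degradation genes, 33.3% for ATF6 processing and 75% for cytosolic heat shock, beside the same 24.6%. Of 19 other ER folding enzymes, 11 rose and 1 fell (median log2 fold change 0.73). FKBP14, a prolyl isomerase of the ER, was at most 11.4 CPM in NC and at least 35.9 CPM in si-EIF5A2 (log2 fold change 2.01, SE 0.13, adjusted p = 2.22e-05). PRDX4, the ER peroxiredoxin that turns peroxide into disulphides, was at 36.6 ± 1.35 CPM with the control siRNA and 146 ± 16.8 CPM with si-EIF5A2 (SD, n = 3 each), which is 399.9% of the NC mean (adjusted p = 8.31e-06). The groups did not overlap for either gene, and both rises were larger than any among the 42 genes, while FKBP7, a related isomerase, rose by 1.31 on the log2 scale.

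Of 26 translocon and ER-associated degradation genes tested, 8 rose and 1 fell (median 0.54). SELENOS, a selenoprotein of the degradation complex, rose by 1.03 and SPCS3, a signal peptidase subunit, by 0.79 on the log2 scale, while EDEM2, a relative of EDEM1, fell by 0.86. Of 9 genes for ATF6 processing and related membrane-bound factors, 2 rose and 1 fell (median 0.12). CREB3 rose by 1.10 and MBTPS1, the protease that makes the first cut in ATF6, by 0.84, while CREB3L1, low at 1.97 to 2.67 CPM in NC, fell by 1.62. Of 12 cytosolic heat shock genes tested, which lie outside the ER, 8 rose and 1 fell (median 0.84). HSP90AA1, the inducible cytosolic Hsp90, was at 705, 739.5 and 809 CPM in NC and 2074, 1985 and 2026 CPM in si-EIF5A2, and rose 2.70-fold (log2 fold change 1.43, SE 0.07, adjusted p = 9e-06). HSPA1A and HSPA1B, near-identical copies whose counts can be split wrongly, had log2 fold changes of 1.35 and 1.22. A higher level was thus measured for chaperones of the cytosol as well as of the ER, and no test of a difference between these lists was run.

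**Figure D5:**
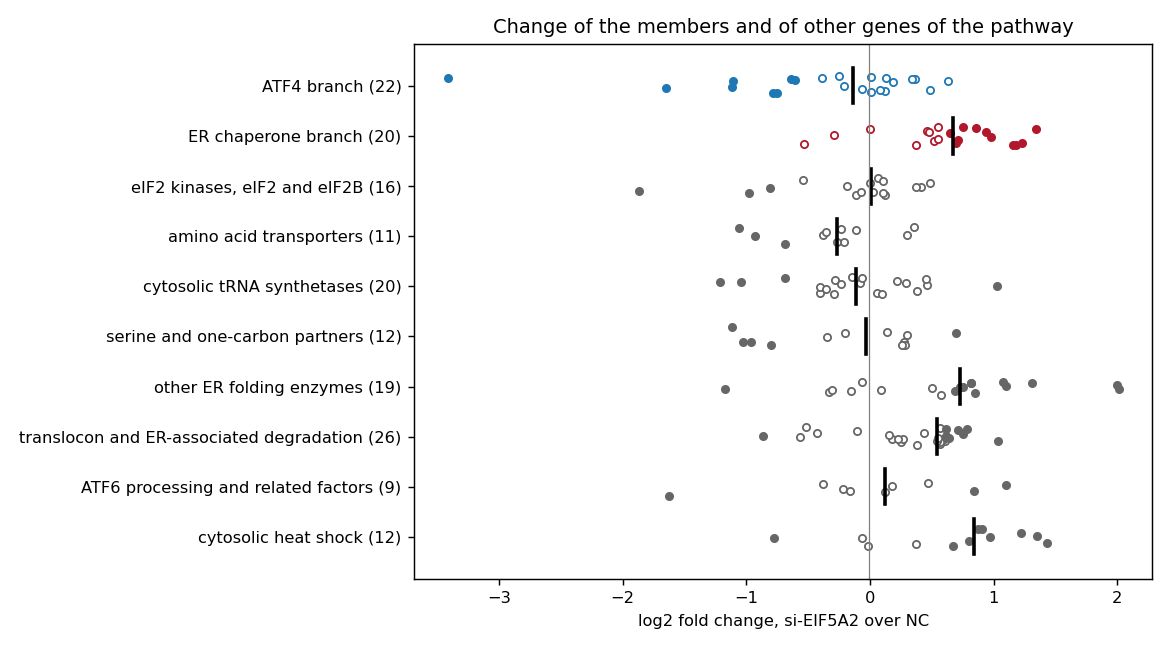
Log2 fold change of si-EIF5A2 over NC (horizontal axis) for the genes tested in both branches and in 8 further lists (rows, with the number of genes), filled where called, with a black bar at the median of each list. Medians of the ER chaperone branch and of the lists for ER folding, translocon and degradation, and heat shock lie between 0.54 and 0.84, that of ATF6 processing is 0.12, and those of the lists around eIF2, amino acids and folate between -0.27 and 0.01.

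In 14 repeats with other tests, scalings, filters or libraries left out, 16 of the 19 called genes kept their call and direction in each repeat. The exceptions were NUPR1, PHGDH and ERN1, and no called gene changed direction. DDIT3 was called as higher by DESeq2 alone (adjusted p = 0.0392).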

How the data were processed

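RNA was measured in 3 NC and 3 si-EIF5A2 libraries of SKOV3 cells, grouped by their labels. Paired-end mRNA libraries were sequenced and processed with StringTie and ballgown, and the authors deposited a table of estimated counts for each gene, as whole numbers without normalization. The submitters' processing notes name Bowtie 0.12.2 and mouse genome builds, although the identifiers are human. This conflict could not be settled, and no build was taken from the notes. The aligner settings, annotation and strandedness are not given in the sources used here. Low counts pile up at multiples of about 3.84, so 1 fragment appears to be worth several counts. The limit for a count of 0 covers counting error only and was 3 fragments, or 0.158 to 0.245 CPM. Standard errors and SDs rest on the spread between libraries. The test had been planned for plain counts, and edgeR was run on the estimated counts as whole numbers. With the step above they are not plain fragment counts, so the counting error of low genes may exceed what the fit assumes. A repeat with counts divided by their step changed no call among the 42 genes.

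Of 58825 identifiers, 58472 had a symbol and 58552 were in GENCODE 29, which gave positions and exon lengths. edgeR 4.0.16 (R 4.3.3) was run on all 6 libraries with filterByExpr, TMM, robust quasi-likelihood fits and condition as the only term (16208 genes, common biological coefficient of variation 0.261). Alternatives were DESeq2 1.42.0, other scalings and filters, the replicate number as a block, counts divided by their step, each library left out and other thresholds. The script was tested on simulated data. Mean log2 CPM used a prior count of 2. The 42 genes and all lists were chosen with earlier results of these data known. Named were all 42 genes, EIF5A2, some genes of the marker lists and, in each other list, up to 3 called genes with the largest absolute log2 fold change. Medians of lists and branch means carry no test. Of the 42 genes, 5 overlap another gene on the same strand and 18 overlap an antisense gene, so their counts are less certain. No columns of other samples were found and no batch was given.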

Additional observations from a re-analysis of the deposited data

How the results depend on the processing

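Over the 42 genes, 14 repeats gave 587 values, of which 557 kept their direction and side of the threshold, 9 lost the call, 5 gained it and 16 changed sign, none of the last for a called gene. Without 1 library, 17 to 21 of the 42 genes were called, beside 19 with all libraries. NUPR1 lost its call with no filter on low counts (adjusted p = 0.0609), dropped out with at least 10 counts in every library, and without 1 library had log2 fold changes of -4.24 to -2.85. PHGDH lost its call without si-EIF5A2 1, and ERN1 without NC 3 or without si-EIF5A2 1. SYVN1 was gained without NC 2 (0.61) and without si-EIF5A2 3 (0.62), ATF6 without si-EIF5A2 3 (0.59) and SEL1L, as lower, without si-EIF5A2 1 (-0.61). With these losses the cause was not tested.

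The ATF4 branch median was -0.079 with at least 10 counts in every library, since NUPR1 was then not tested, and the ER chaperone branch median was 0.59 to 0.71 without 1 library. At an adjusted p under 0.05 and any fold, 18 of 20 ER chaperone branch genes and 81 of 125 other pathway genes were called, beside 11 and 48. Over all genes tested, 18% were higher and 18.9% lower by this rule. At an unadjusted p under 0.05 and a fold over 2, 8 of the 42 genes were called, 4 in each branch. This rule also called 19 of the 125 other pathway genes and 2370 of all 16208 genes tested, beside 3992 by the main rule. The share of the 42 genes was not tested against that of all genes. Signs changed only for genes near 0. MTHFD2 had a log2 fold change of -0.0074 with upper-quartile scaling, -0.025 with no filter, -0.0052 with at least 10 counts and -0.0016 with counts divided by their step, and -0.085 to 0.074 without 1 library. CEBPG was at -0.00063 with upper-quartile scaling and -0.019 with no filter, and at -0.051 to 0.062 without 1 library. XBP1 was at 0.0082 with RLE scaling and 0.0081 with library size only, and at -0.083 to 0.035 without 1 library. ALDH1L2 was at -0.062 to 0.22 without 1 library.

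The labels do not say whether the replicate numbers pair the libraries. Deviations of same-numbered libraries from their group means correlated at -0.024, 0.0052 and -0.0027, and none correlated best with its own number. No shared deviation was thus seen in these values, which does not settle how the libraries were made. With the replicate block, 18 of the 42 genes were called, since NUPR1 was lost (adjusted p = 0.071), and 3731 in all. The block changed no other call among the 42 genes. No scaling moved the median of all genes by more than 0.1. Genes near the limit of a count of 0, such as NUPR1 in si-EIF5A2, are limited by depth.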
